A study of Mus musculus with 6 samples.

Results

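The DNA replication machinery was followed here in cartilage and subchondral bone of the tibial joint surface in mice with and without frizzled-related protein (Frzb), a secreted WNT antagonist. It was defined as 43 genes that license, unwind, copy and complete DNA, supply its nucleotides or package the new strand. A gene was read at its brightest probe set, that is, the one with the highest mean over the 6 arrays among those assigned to that gene alone. Of the 43 genes, 42 had such a probe set, out of 13817 genes on the array, while no probe set was assigned to Chaf1a. All values are deposited expression values on the log2 scale, and a fold change is the mean of the Frzb-/- mice minus that of the wild-type mice. Because different probe sets bind their target differently, levels were compared between mice and not between genes.

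Each of the 6 arrays held RNA of a single joint from 1 male C57Bl/6J mouse aged 6 weeks. The wild-type mice were the animals 6-1, 8-1 and 9-1, and the animals 6, 14 and 17 were labelled Frzb-/-, a constitutive knockout back-crossed into that strain. Because the study left out 1 presumed knockout after re-genotyping it as heterozygous, and its comparison matches the arrays titled 14 and 17, those 2 mice form the Frzb-/- group and the mouse of title 6 is shown apart. The dissected piece ran from the joint surface to the growth plate and held trabecular bone with its marrow.

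DNA replication starts when the origin recognition complex, with Cdc6 and Cdt1, loads the hexamer of Mcm2 to Mcm7 on DNA. In S phase Cdc45 and the GINS complex turn this hexamer into a moving helicase, and the polymerases, the sliding clamp Pcna and its loader follow it, fed by enzymes that make deoxynucleotides. These genes are transcribed mainly in dividing cells and many are known targets of the E2F transcription factors; in this tissue, dividing cells include chondrocytes of the growth plate and the blood precursors of the marrow.

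Frzb itself had values of 10.02 (mouse 6-1), 10.79 (8-1) and 10.16 (9-1) among the wild-type mice, against 7.02 and 6.42 in mice 14 and 17 (log2 fold change -3.61, SE 0.27, adjusted p = 0.000994). Mouse 6 had 6.93, between the 2 Frzb-/- mice, whereas over all probe sets its array correlated better with the wild-type arrays (0.983 to 0.991) than with arrays 14 and 17 (0.940 to 0.957). Medians per array lay between 7.32 and 7.45. The cartilage markers Col2a1 (14.56 to 14.75 in the 6 mice) and Comp (13.53 to 14.03) were bright in every mouse.

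All 42 replication genes were lower in the Frzb-/- mice than in the wild-type mice, as were 45.4% of all genes. Their log2 fold changes ran from -0.55 (Rfc1) to -2.74 (Cdc6), with a median of -1.42, beside 0.04 over all 13817 genes. In limma's moderated two-sided test, 28 of the 42 genes fell and none rose, where passing means an adjusted p (Benjamini-Hochberg) below 0.01 together with a log2 fold change beyond 1. Over all genes 6.02% passed as lower and 3.03% as higher. At an adjusted p under 0.01 and any fold change, 34 of the 42 were lower, beside 8.27% of all genes, and at an adjusted p under 0.05 all 42 were, beside 15.3% of all genes. In every one of the 42 both Frzb-/- mice lay below all 3 wild-type mice, as did 28.1% of all genes. With 2 Frzb-/- mice the outcome depends on single mice, and on mouse 17 more than on mouse 14. The median log2 fold change was -1.10 without mouse 17 and -1.55 without mouse 14. Without the wild-type mouse 8-1, 16 of the 42 genes passed, beside 2.7% of all genes passing as lower. Fewer of the 42 passed without mouse 17, which leaves a lone Frzb-/- mouse. In this bulk tissue, fewer dividing cells and less RNA per cell cannot be told apart.

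**Figure D1:**
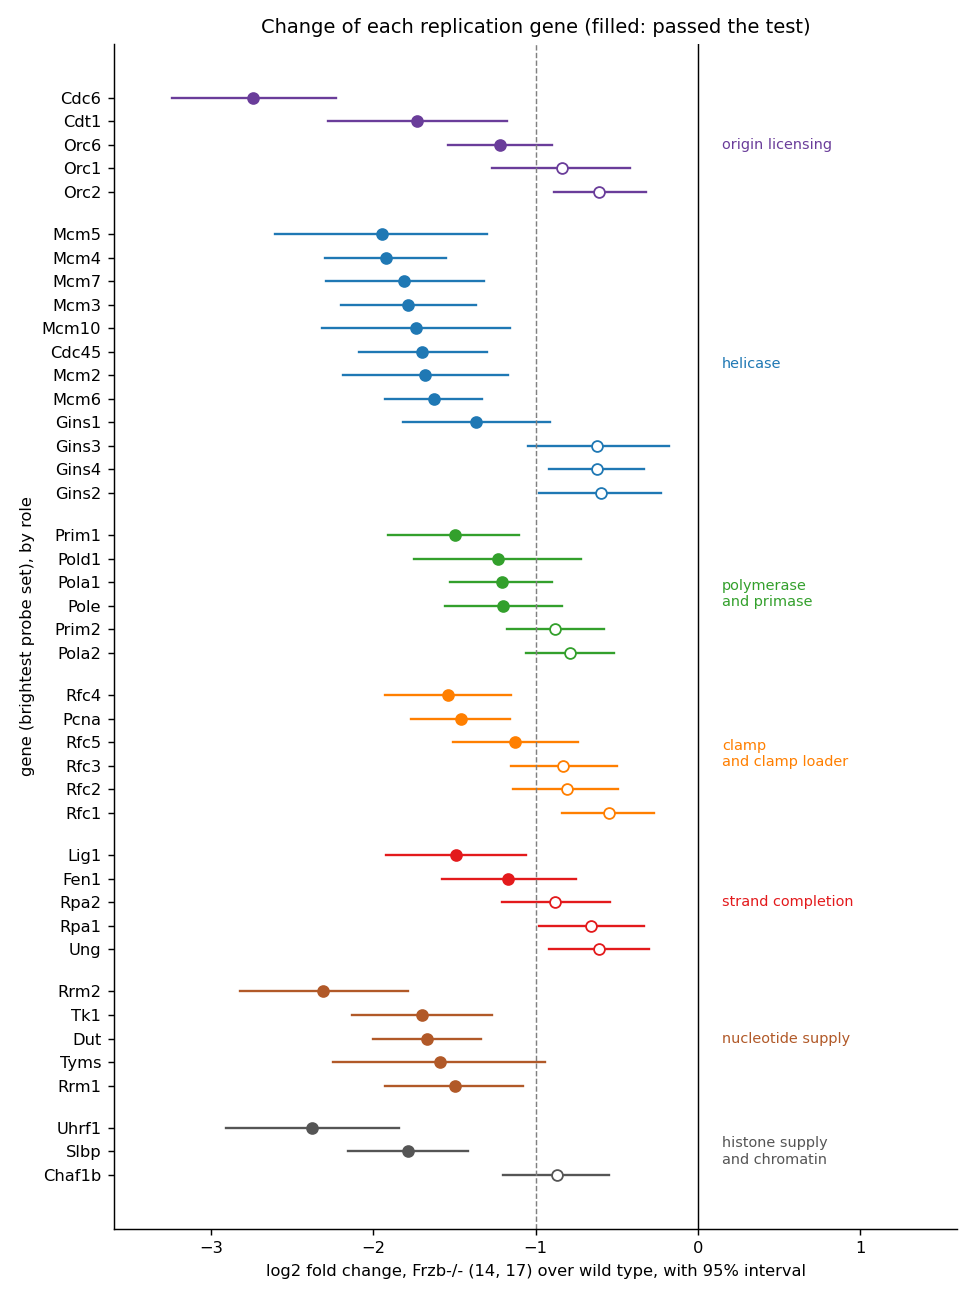
Log2 fold change of the 42 replication genes in the Frzb-/- mice 14 and 17 over the 3 wild-type mice (horizontal axis), grouped by role, with 95% intervals as lines. Filled circles mark the 28 genes that passed the test and open circles the other 14; every circle lies left of 0, and the dashed line marks -1.

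Promoter sequences are shown for the genes at both ends of this range, Cdc6 and Rfc1, and for Mcm6, the gene with the most matches to E2F-type letters; Mcm5, whose matches overlap, was added after its values were seen. Windows from 250 bases before to 50 after the annotated start (RefSeq, GRCm38.p6) were held for 35 of the 42 genes, and were searched on both strands for TTTCCCGC, TTTGGCGC, TTTCGCGC and TTTGCCGC. The lines give the 160 bases that end just before the start, 5′ to 3′ on the strand of the gene, with matches to these letters in capitals. They cover chr1:128359706-128359865 on the minus strand (Mcm6), chr8:75109349-75109508 on the plus strand (Mcm5), chr11:98907991-98908150 on the plus strand (Cdc6) and chr5:65335640-65335799 on the minus strand (Rfc1).
Mcm6: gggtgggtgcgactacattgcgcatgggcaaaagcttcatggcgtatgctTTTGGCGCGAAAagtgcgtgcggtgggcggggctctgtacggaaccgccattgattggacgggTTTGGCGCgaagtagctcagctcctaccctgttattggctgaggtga
Mcm5: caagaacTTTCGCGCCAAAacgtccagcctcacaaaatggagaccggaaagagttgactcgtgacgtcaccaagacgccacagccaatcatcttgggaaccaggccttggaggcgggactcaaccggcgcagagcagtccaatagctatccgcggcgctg
Cdc6: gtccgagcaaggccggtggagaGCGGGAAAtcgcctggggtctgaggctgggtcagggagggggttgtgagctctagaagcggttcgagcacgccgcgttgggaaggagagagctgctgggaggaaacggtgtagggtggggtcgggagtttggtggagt
Rfc1: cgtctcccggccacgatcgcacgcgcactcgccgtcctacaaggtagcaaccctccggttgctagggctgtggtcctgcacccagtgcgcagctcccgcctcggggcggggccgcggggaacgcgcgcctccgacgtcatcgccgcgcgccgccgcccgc

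In Mcm6, TTTGGCGC on the strand of the gene began at -110 and at -47, where -1 is the base before the start, and TTTCGCGC on the other strand overlapped the first of them at -106. In Mcm5, TTTCGCGC at -153 overlapped TTTGGCGC of the other strand at -149. In Cdc6, the gene with the largest fall, the single match was TTTCCCGC on the other strand at -138, and the window of Rfc1 held none of these letters. At least 1 match was found for 13 of the 35 genes (37.1%), against 483 of 11071 genes on the array that had a window (4.36%) and 704 of 27025 genes in the whole sequence table (2.6%). The letters CCAAT, on either strand, were found for 22 of the 35 (62.9%), against 42.2% of the genes on the array. The median GC content was 60.0% in the windows of the replication genes and of the genes on the array. Within the machinery, the median log2 fold change was -1.63 in the 13 genes with a match (-2.74 to -0.62) and -1.48 in the 22 without (-2.31 to -0.55). A match is a description of letters and not a bound site.

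Among the 5 origin licensing genes, Cdc6, Cdt1 and Orc6 fell, and the median of the group was -1.22. Cdc6, the loading ATPase of the Mcm hexamer, had values of 9.75, 9.63 and 10.07 in the wild-type mice (here and throughout in the order 6-1, 8-1, 9-1), 7.37 and 6.79 in mice 14 and 17, and 10.09 in mouse 6. The 2 Frzb-/- mice thus lay 2.26 below the lowest wild-type mouse and mouse 6 just above the highest, and the fall was 6.66-fold (log2 fold change -2.74, 95% interval -3.24 to -2.23, adjusted p = 0.000999). Its partner Cdt1 had 11.38, 11.19 and 11.57 in the wild-type mice, 10.02 and 9.28 in mice 14 and 17, and 11.60 in mouse 6. The groups did not overlap, mouse 17 was the lowest, and the fall was 3.31-fold (adjusted p = 0.00307).

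Genes of the origin recognition complex lay on both sides of the limits, and differences between them were not tested. Orc6 had 8.52 to 8.67 in the wild-type mice and 7.53 and 7.27 in mice 14 and 17 (log2 fold change -1.22, adjusted p = 0.00166). Orc1, its ATPase subunit, had 7.88 to 8.13 against 6.91 and 7.42, and Orc2 had 8.41 to 8.59 against 7.83 and 7.92. Neither passed at its brightest probe set, with log2 fold changes of -0.84 (adjusted p = 0.0152) and -0.61 (adjusted p = 0.0122). In both, mouse 14 and not mouse 17 was the lowest. At its dimmer probe set Orc1 had a log2 fold change of -1.72 and passed. In mouse 6, Orc2 stood at 8.25, the single one of the 42 genes in which this mouse lay below every wild-type mouse.

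In the helicase group 9 of 12 genes fell, with a median of -1.69. All of Mcm2 to Mcm7, which form the motor ring, passed, with log2 fold changes from -1.63 (Mcm6) to -1.95 (Mcm5). Mcm5 had 11.27, 11.26 and 11.69 in the wild-type mice, 9.91 and 9.00 in mice 14 and 17, and 11.43 in mouse 6. The 2 Frzb-/- mice differed from each other by more than the wild-type mice did, so its interval was wide (-2.61 to -1.30, adjusted p = 0.00365). Mcm4 had 10.91, 10.67 and 10.96 in the wild-type mice, 9.09 and 8.75 in mice 14 and 17, and 11.07 in mouse 6 (3.80-fold lower, adjusted p = 0.00104). Mcm7, the brightest probe set of the group, had 12.23, 12.26 and 12.64, then 10.84 and 10.30, and 12.57 in mouse 6 (3.50-fold lower, adjusted p = 0.00178). In each of these genes the 3 wild-type mice and mouse 6 stood together, more than 1 above both Frzb-/- mice.

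The other ring subunits behaved alike. Mcm3 had 10.42 to 10.71 in the wild-type mice against 8.96 and 8.51 (log2 fold change -1.79), and Mcm2 had 10.52 to 10.89 against 9.30 and 8.66 (-1.68). Mcm6 had 11.19 to 11.45 against 9.68 and 9.66, so that here the 2 Frzb-/- mice were level, and its interval was the narrowest of the ring (-1.93 to -1.33). Its promoter held the most matches above. Of the factors that start the ring, Mcm10 had 8.62 to 9.07 against 7.51 and 6.74 (-1.74, adjusted p = 0.00361), and Cdc45 had 7.87 to 8.34 against 6.46 and 6.28 (-1.70, adjusted p = 0.00129). Both values lay within the range of the ring.

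The 4 GINS genes, whose products form 1 complex, were not alike in size. Gins1 fell, with 8.03 to 8.32 in the wild-type mice and 7.09 and 6.51 in mice 14 and 17 (log2 fold change -1.37, adjusted p = 0.00362). Gins2 had 7.71 to 8.11 against 7.37 and 7.18, Gins3 had 7.14 to 7.40 against 6.91 and 6.37, and Gins4 had 8.60 to 8.82 against 8.09 and 8.13. Their log2 fold changes of -0.60, -0.62 and -0.62 did not pass (adjusted p = 0.0307, 0.0470 and 0.0123), although their groups did not overlap. Gins3 had the narrowest gap of all 42 genes, 0.23 between the lowest wild-type mouse and mouse 14. Whether Gins1 differed from the other GINS genes was not tested.

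Of the 6 polymerase and primase genes 4 fell, with a group median of -1.21. Prim1, the catalytic primase subunit, had 9.55, 9.58 and 9.81 in the wild-type mice, 8.36 and 7.91 in mice 14 and 17, and 9.92 in mouse 6 (2.84-fold lower, adjusted p = 0.00181). Pold1, the catalytic subunit of the lagging strand polymerase, had 9.67, 9.55 and 9.81, then 8.80 and 8.09, and 9.91 in mouse 6 (2.35-fold lower, adjusted p = 0.00796). In both genes mouse 6 was the highest of all mice and mouse 17 the lowest. Pola1, the catalytic subunit that extends primers, had 8.46 to 8.56 against 7.45 and 7.16 (log2 fold change -1.21), and Pole, that of the leading strand polymerase, had 8.25 to 8.58 against 7.30 and 7.06 (-1.20).

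The 2 accessory members of this group moved less. Pola2 had 8.56 to 8.67 in the wild-type mice against 7.85 and 7.79, and Prim2 had 8.27 to 8.50 against 7.44 and 7.51. Both had an adjusted p under 0.01 (0.00382 and 0.00394) at log2 fold changes of -0.79 and -0.88, short of 1. The count of this group depends on single mice, since 0 of the 6 passed without the wild-type mouse 8-1 or without mouse 17.

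The sliding clamp fell, and its loader genes lay on both sides of the limits, with differences between them not tested. Pcna, the ring that tethers polymerases to DNA, had 12.67, 12.62 and 12.85 in the wild-type mice, 11.30 and 11.20 in mice 14 and 17, and 13.00 in mouse 6. Mouse 6 was the highest, the 2 Frzb-/- mice were level, and the fall was 2.76-fold (log2 fold change -1.46, 95% interval -1.77 to -1.16, adjusted p = 0.00109). Of the 5 subunits of replication factor C, which loads it, Rfc4 (8.98, 9.06 and 9.45 against 7.60 and 7.65; log2 fold change -1.54, adjusted p = 0.00157) and Rfc5 (8.60, 8.71 and 8.85 against 7.81 and 7.38; -1.13, adjusted p = 0.00408) fell. Rfc5 was the gene just inside the limit on fold change, followed by Fen1 at -1.17. Just outside stood Rpa2 and Prim2, both at -0.88.

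The other 3 loader genes did not pass at their brightest probe set, although Rfc3 did at its dimmer one (log2 fold change -1.01). Rfc3 had 7.62 to 7.90 in the wild-type mice against 7.02 and 6.83 (log2 fold change -0.83, adjusted p = 0.00642), and Rfc2 had 9.85 to 10.03 against 9.23 and 8.97 (-0.81, adjusted p = 0.00672). Rfc1, the large subunit, had 8.67, 8.61 and 8.78 in the wild-type mice, 8.18 and 8.09 in mice 14 and 17, and 8.76 in mouse 6. This was the smallest difference of the 42 genes (-0.55, adjusted p = 0.0163), and its groups still did not overlap. The median of clamp and loader together was -0.98, with 3 of 6 genes passing.

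For strand completion 2 of 5 genes fell, with a median of -0.88. Lig1, the ligase that seals Okazaki fragments, had 10.20, 10.12 and 10.52 in the wild-type mice, 8.99 and 8.59 in mice 14 and 17, and 10.40 in mouse 6 (2.80-fold lower, adjusted p = 0.00224). Fen1, the nuclease that trims their flaps, had 11.26, 11.12 and 11.62, then 10.26 and 10.07, and 11.49 in mouse 6 (2.25-fold lower, adjusted p = 0.00445). Mouse 6 lay within the wild-type range in both, as it did in all 5 genes of this group. Rpa1, the large subunit of the single-strand binding protein and the brightest probe set here, had 11.65, 11.50 and 11.75 against 11.09 and 10.86, with 11.59 in mouse 6, and did not pass (log2 fold change -0.66, adjusted p = 0.0147). Its partner Rpa2 had 9.14 to 9.37 against 8.53 and 8.25 (-0.88, adjusted p = 0.00573), and Ung, which removes uracil from DNA, had 7.99 to 8.24 against 7.44 and 7.48 (-0.61, adjusted p = 0.0154).

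All 5 nucleotide supply genes fell, with a median of -1.67. Rrm2, the small subunit of ribonucleotide reductase whose level follows the cell cycle, had 12.06, 11.95 and 12.38 in the wild-type mice, 10.13 and 9.52 in mice 14 and 17, and 12.33 in mouse 6. The gap between the groups was 1.82 and the fall 4.95-fold (log2 fold change -2.31, 95% interval -2.82 to -1.79, adjusted p = 0.00120). Tk1, the thymidine kinase of S phase, had 9.27, 9.09 and 9.43, then 7.81 and 7.33, and 9.47 in mouse 6 (3.24-fold lower, adjusted p = 0.00154). The large reductase subunit Rrm1 had 10.82 to 11.15 against 9.70 and 9.23 (-1.50), and Dut, which clears dUTP, had 9.62 to 9.93 against 8.11 and 8.05 (-1.67). Tyms, which makes thymidylate, was read at a dim probe set with 6.50 to 6.75 against 5.55 and 4.56 and 7.21 in mouse 6 (-1.59, adjusted p = 0.00727). It had both the widest gap between mice 14 and 17 and the largest difference of mouse 6 from the wild-type mean (0.56) among the 42 genes.

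Of the 3 genes of histone supply and chromatin that were found, Uhrf1 and Slbp fell, and the median was -1.79. Uhrf1, which guides methylation of newly made DNA, had 10.61, 10.42 and 10.79 in the wild-type mice, 8.58 and 7.88 in mice 14 and 17, and 10.75 in mouse 6 (5.19-fold lower, adjusted p = 0.00120). Slbp, which binds histone mRNA, had 11.21, 11.11 and 11.24, then 9.61 and 9.18, and 11.42 in mouse 6 (3.46-fold lower, adjusted p = 0.00108). In both, every wild-type mouse stood at least 1.50 above both Frzb-/- mice. Chaf1b, a subunit of the assembly factor that places new histones behind the fork, had 7.82 to 8.12 against 7.17 and 7.01 (log2 fold change -0.87, adjusted p = 0.00520).

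**Figure D2:**
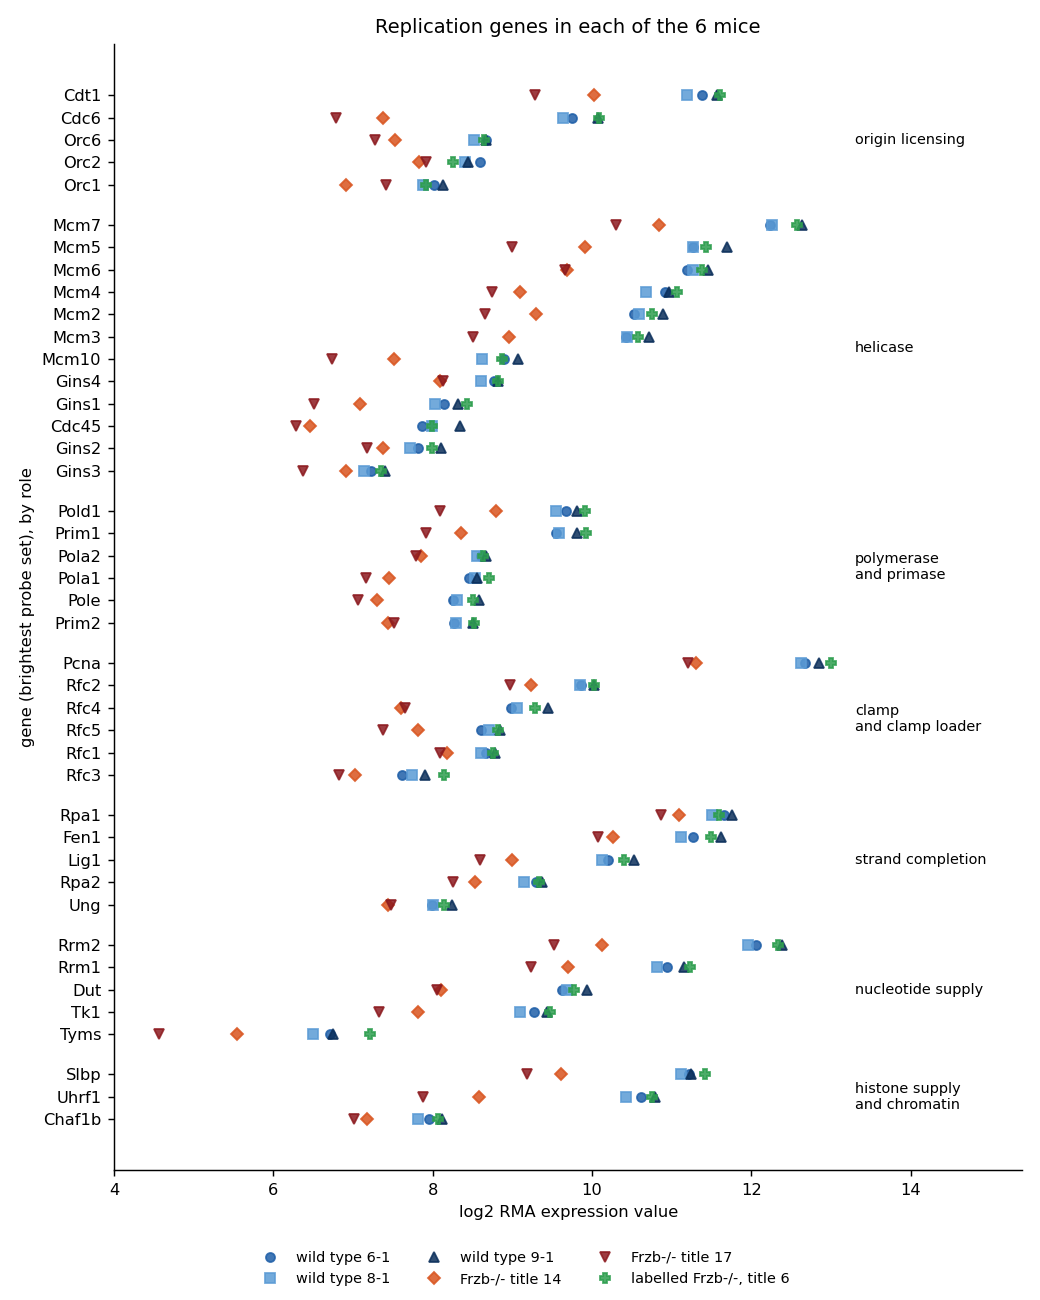
Log2 expression values of the 42 replication genes (brightest probe set) in each of the 6 mice, grouped by role. The wild-type mice (blue) and the mouse of title 6 (green) lie together at the right, and mice 14 (orange) and 17 (dark red) lie below all wild-type mice in every gene.

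The 4 groups of the fork were set side by side. The nucleotide supply genes had a median log2 fold change of -1.67 with 5 of 5 passing, the helicase genes -1.69 with 9 of 12, the polymerase and primase genes -1.21 with 4 of 6, and the clamp and its loader -0.98 with 3 of 6. Summed on the linear scale, the wild-type level over the Frzb-/- level was 3.79 for nucleotide supply, 3.22 for the helicase, 2.46 for clamp and loader and 2.25 for polymerase and primase, sums in which the brightest probe sets weigh most. The helicase and nucleotide supply changed places between the 2 measures, as did polymerase and clamp. Without mouse 17, 1 nucleotide supply gene, 2 helicase genes and 0 genes of each of the other two groups passed, and without mouse 8-1 the helicase count was 5. No test was made of differences between these groups, whose genes share the same 5 mice.

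The mice also differed within groups. Mouse 17 lay below mouse 14 in 36 of the 42 genes, with a median difference of -0.29, beside 59.1% of all genes. On average over the nucleotide supply genes, mouse 17 stood at -2.01 and mouse 14 at -1.49 relative to the wild-type mean, and over the helicase genes at -1.66 and -1.24. Over clamp and loader the means were -1.14 and -0.97. Mouse 17 was the lower in all 7 groups. Among the wild-type mice, 9-1 was the highest in 40 of the 42 genes (95.2%, beside 34.5% of all genes) and 8-1 the lowest in 28, but the mean deviations over the 42 genes were small, at 0.16 and -0.11.

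**Figure D3:**
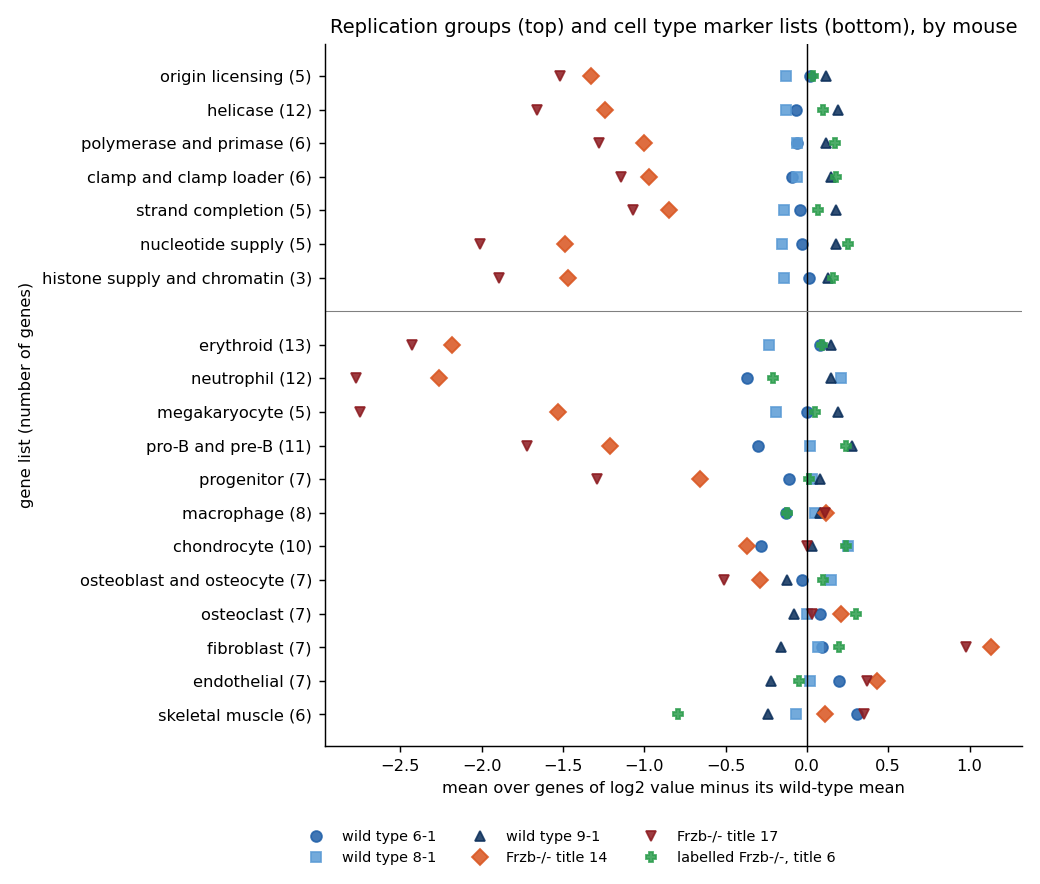
Mean over the genes of a list of the log2 value minus the wild-type mean of that gene (horizontal axis), for each mouse, in the 7 replication groups (top) and 12 cell type marker lists (bottom). Mice 14 and 17 lie between -0.85 and -2.01 in the replication groups and lower still for erythroid and neutrophil markers, and between -0.37 and 0.21 for chondrocyte and osteoclast markers.

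Mouse 6, labelled Frzb-/-, lay nearer to the wild-type mean than to the Frzb-/- mean in all 42 genes, beside 78.2% of all genes. Its value was within the wild-type range in 27 of the 42 (64.3%, beside 45.1% of all genes), above it in 14 (33.3%, beside 27.3%) and below it in 1 (2.38%, beside 27.6%). In a limma fit with this mouse as its own group, its difference from wild type had a median of 0.12 (-0.23 to 0.56), and 0 of the 42 passed (0% of all genes), none had an unadjusted p under 0.05, and the smallest adjusted p was 0.709. Against mice 14 and 17, 20 of the 42 were higher in mouse 6 past the same limits, beside 3.29% of all genes, and 37 were higher at an adjusted p under 0.05, beside 11.0%. These contrasts share their arrays with the main one and rest on 1 mouse, whose spread was taken from the others. When mouse 6 was counted with mice 14 and 17, as its label has it, 0 of the 42 genes passed (3 with an unadjusted p under 0.05), although all 42 stayed lower, with a median of -0.85.

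Other probe sets of the same genes gave a second reading. The 42 genes had 81 probe sets, of which 48 passed as lower and none as higher, beside 5.09% of all 30618 probe sets passing as lower. All 81 were lower in the Frzb-/- mice, and in 78 the groups did not overlap. Of all genes at the brightest probe set, 45.4% were lower and 28.1% had both Frzb-/- mice below all wild-type mice. The 81 probe sets are repeat readings of the same 42 genes in the same mice. For 27 genes with several probe sets, 10 had log2 fold changes that differed by more than 0.5 between them. Fen1 had -1.17 at its brightest probe set, but -2.16 at the other, with 10.08 to 10.35 in the wild-type mice against 8.02 and 8.08 (adjusted p = 0.000878). Orc1 passed at its dimmer probe set alone (7.09 to 7.42 against 5.16 and 5.85; -1.72, adjusted p = 0.00259), and so did Rfc3 (7.53 to 7.85 against 6.70 and 6.55; -1.01, adjusted p = 0.00380), so that 30 of the 42 genes passed at some probe set.

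At the other extreme, a second probe set of Cdc45 had 6.76 to 6.96 in the wild-type mice against 6.68 and 6.81 (log2 fold change -0.14, adjusted p = 0.466), while its brightest one stood at -1.70. With the mean of a gene's probe sets in place of the brightest, Cdc45 no longer passed (-0.92) and Orc1 did (-1.28). Dim probe sets of Rfc1 (-0.09), Orc2 (-0.19) and Mcm6 (-0.33) also showed small differences, and the first 2 of these had overlapping groups.

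**Figure D4:**
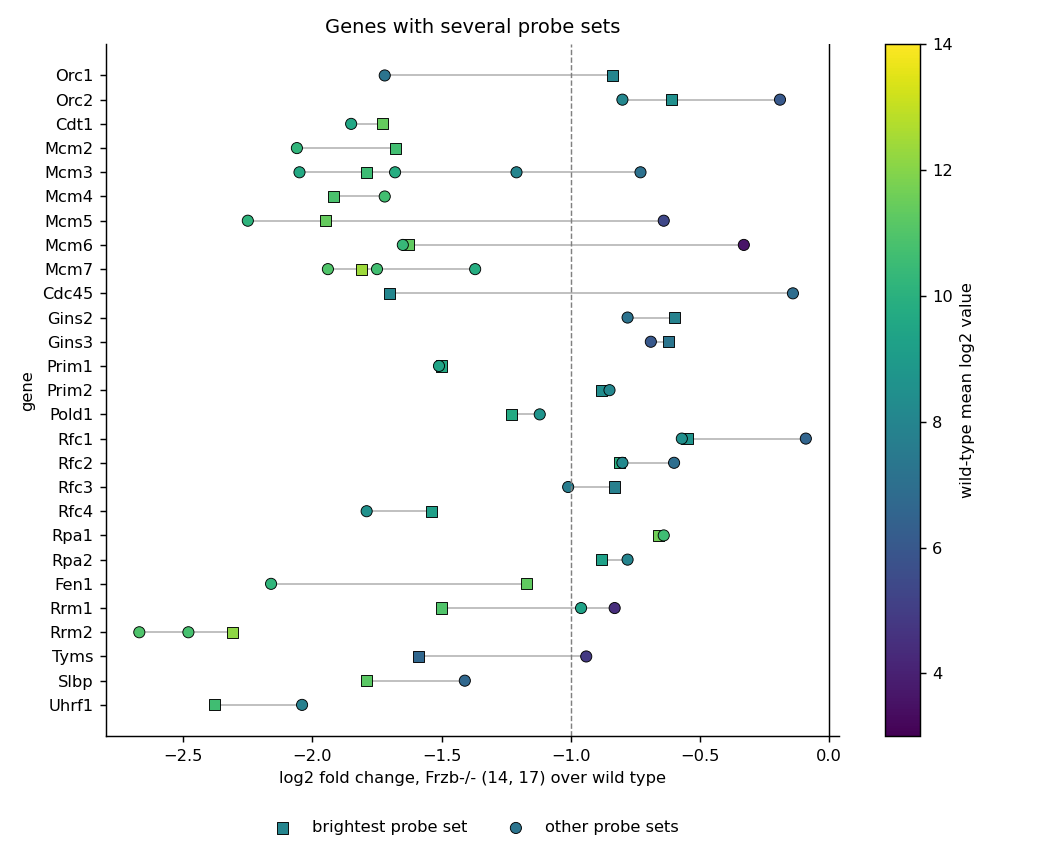
Log2 fold change (horizontal axis) of every probe set of the 27 genes that have several; squares mark the brightest probe set, circles the others, and colour the wild-type mean log2 value. All lie left of 0, and the smallest differences are those of dim probe sets of Rfc1, Cdc45, Orc2 and Mcm6.

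Replication genes outside these 42 were read in the same fit. Of 76 such genes, listed by function although with earlier results of these data known, 73 were found. Of these, 68 were lower (93.2%, beside 45.4% of all genes), with a median log2 fold change of -0.72. In the test 21 fell (28.8%, beside 6.02% of all genes) and none rose (beside 3.03%). Without mouse 8-1, 8 of the 73 passed, beside 2.7% of all genes passing as lower. Fewer passed without mouse 17, which leaves a lone Frzb-/- mouse. Among 15 other origin and helicase genes 5 fell (median -0.83). Dbf4, the activator of the Cdc7 kinase that fires origins, had 9.61, 9.65 and 9.97 against 8.30 and 7.30 (-1.95, adjusted p = 0.00419), and geminin (Gmnn), the inhibitor of Cdt1, had 9.80, 9.80 and 10.20 against 8.33 and 7.66 (-1.93, adjusted p = 0.00203). Both the licensing factor Cdt1 and its inhibitor were thus lower in the same 2 mice. Topbp1, a scaffold of helicase activation, fell as well (-1.24, adjusted p = 0.00476), while the origin subunits Orc3 (8.49 to 8.79 against 8.48 and 8.55; -0.15, adjusted p = 0.465) and Orc4 (-0.06, adjusted p = 0.745) did not pass.

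Among 24 other fork and strand genes 8 fell (median -0.73). Clspn, which links the fork to its checkpoint, had 8.85, 8.89 and 9.34 in the wild-type mice against 7.22 and 6.27 (log2 fold change -2.28, adjusted p = 0.00260), and Dscc1, part of an alternative clamp loader, had 7.57, 7.38 and 7.98 against 5.64 and 5.09 (-2.27, adjusted p = 0.00135). The other polymerase delta subunits did not pass, with -0.34 for Pold2 (adjusted p = 0.107), -0.72 for Pold3 (adjusted p = 0.0156) and 0.19 for Pold4 (adjusted p = 0.441). The brightest genes of this list, Poldip3 (-0.12) and topoisomerase Top1 (-0.86), did not pass.

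Of 23 other nucleotide supply genes, with a median of -0.40, 1 fell (4.35%, beside 6.02% of all genes). This was Dck, the kinase that salvages deoxycytidine, with 10.69, 10.95 and 11.30 in the wild-type mice, 8.63 and 7.91 in mice 14 and 17, and 11.20 in mouse 6 (log2 fold change -2.71, adjusted p = 0.00121). Nme2, a nucleoside diphosphate kinase and the brightest of this list, had 12.88 to 13.07 against 13.26 and 13.40 (0.35, adjusted p = 0.0803), and Paics, of purine synthesis, had -0.24 (adjusted p = 0.273). Of 11 other genes of replication-coupled chromatin 7 fell (median -1.16), among them the remodeller Hells (8.37, 8.80 and 8.83 against 6.82 and 5.87; -2.33, adjusted p = 0.00233) and the maintenance methyltransferase Dnmt1 (10.53, 10.26 and 10.68 against 8.93 and 8.35; -1.85, adjusted p = 0.00177), the partner of Uhrf1. The histone binding proteins Rbbp4 (-0.66) and Rbbp7 (-0.09), the brightest of this list, did not pass.

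**Figure D5:**
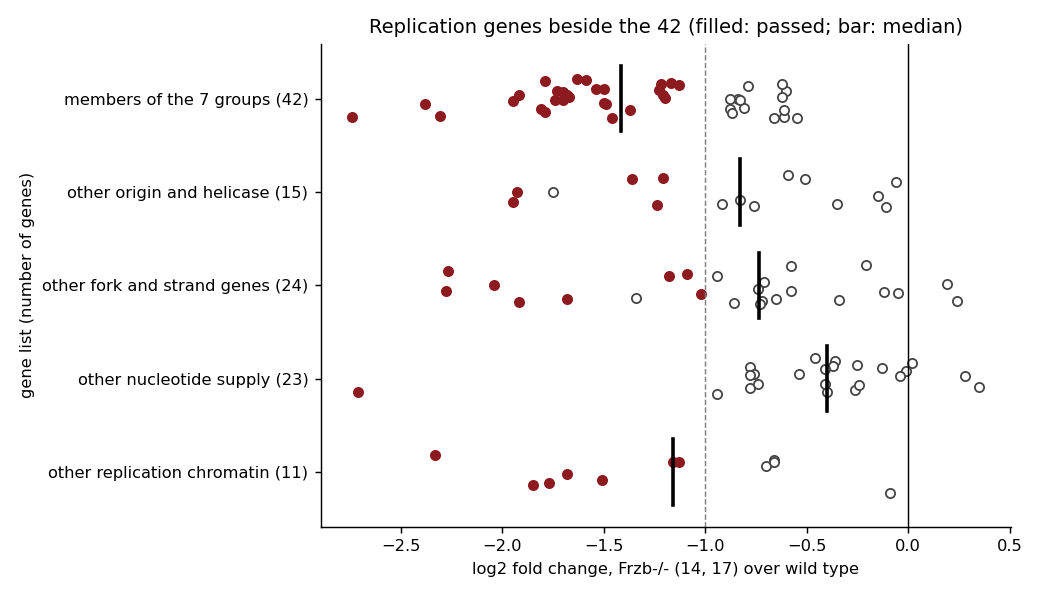
Log2 fold change of the 42 replication genes (top row) and of 73 further replication genes in 4 lists; each circle is a gene at its brightest probe set, filled where it passed, and the bar is the median of the list. Medians are -1.42 for the 42 genes, -0.83, -0.73, -0.40 and -1.16 for the lists below.

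Most markers of blood-forming cells were lower in mice 14 and 17, as the replication genes were. Higher were Sptb (log2 fold change 0.23), Ebf1 (0.18) and Cd34 (1.17). Among the wild-type mice, 6-1 was the lowest in most neutrophil, pro-B and pre-B, and progenitor markers. Mouse 8-1 was the lowest in all erythroid and megakaryocyte markers and in 28 of the 42 replication genes. Of 13 erythroid markers 11 fell (median log2 fold change -2.61), and their summed linear level ranged from 41400 to 51100 in the wild-type mice, from 8840 to 10600 in mice 14 and 17, and was 51700 in mouse 6. All 12 neutrophil markers fell (median -2.32; sums of 92600 to 124000, 24900 to 34900, and 106000 in mouse 6). The red cell anion exchanger Slc4a1 had 12.88 to 13.36 in the wild-type mice against 10.74 and 9.89, and the neutrophil protein S100a9 had 14.17 to 14.53 against 12.96 and 12.49. Of 11 pro-B and pre-B markers 5 fell (median -1.34; sums of 5070 to 7530, 2210 to 2990, and 7510), and of 5 megakaryocyte markers 4 (median -1.92; sums of 14400 to 18500, 2630 to 5740, and 16600). Of 7 progenitor markers Kit, Myb and Gfi1 fell and Cd34 rose (sums of 3900 to 4070, 2380 to 2900, and 4310). These values carry no detection calls, so no marker can be called absent, and their part in the lower replication genes was not tested.

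Outside the fibroblast list, few markers of other cells passed. None of 10 chondrocyte markers passed (median -0.09; sums of 80000 to 105000 in the wild-type mice and 82200 to 95700 in mice 14 and 17), nor did any of 7 osteoclast markers (0.05; 25100 to 28300 and 26700 to 30000). Of 7 osteoblast and osteocyte markers Sost alone fell (median -0.10; 43000 to 46900 and 46900 to 51700). Of 8 macrophage markers Mpeg1 alone fell (0.19; 10800 to 12300 and 11600 to 12700), and none of 7 endothelial markers passed (0.46; 3190 to 3840 and 4030 to 4200). Of 7 fibroblast markers Lum, Dpt and Thy1 rose (0.75; 38100 to 43700 and 72000 to 74500). Skeletal muscle markers were bright, with none of 6 passing (0.23; 81400 to 119000 and 103000 to 122000), and were lowest in mouse 6 (56500).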

How the data were processed

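Expression was measured on Affymetrix mouse genome arrays, 1 per mouse. The authors computed the deposited log2 values by RMA (affy 1.20.0, per the submitters' processing notes), which corrects background, normalizes by quantiles and summarizes probe sets, and removed control and absent probe sets. Quantile normalization assumes like distributions in all arrays, so changes are relative to it. The table held 30618 probe sets: 25090 with 1 gene, 677 with several and 4851 not listed in the annotation. Symbols are those of that annotation.

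All probe sets were tested together, 3 wild-type against 2 Frzb-/- arrays, by the moderated two-sided test of limma 3.58.1 (R 4.3.3), with Benjamini-Hochberg adjustment over all probe sets. Genes passed with an adjusted p below 0.01 and a log2 fold change beyond 1 in either direction, as in the study's methods. Mouse 6 was a group of its own in a separate fit. SE and 95% intervals are limma's. The fit was tested on simulated data. Named with values per mouse are, in each role, the 2 genes with the largest change and the brightest, those next to the threshold, and, in the further lists, the 2 brightest and the 2 passing genes that changed most; others were added after their values were seen. Sequences came from RefSeq promoters, matched by symbol. Alternatives were all 3 labelled mice, each mouse left out, brighter probe sets, trended and robust moderation, cyclic loess, median centring, the mean of probe sets and adjusted p under 0.05 alone. Tables and figures used Python 3.11.15, pandas 2.3.3, numpy 2.4.6 and matplotlib 3.10.9.

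The 42 genes, the gene lists and the tests were chosen with earlier results of these data known. Arrays have no read depth; the number of mice limits precision. The mice are separate animals.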

Additional observations from a re-analysis of the deposited data

Results flagged for a closer look

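In the mouse of title 6, which entered neither group, 14 of the 42 replication genes lay above every wild-type mouse (33.3%, beside 27.3% of all genes): Cdc6, Cdt1, Mcm4, Gins1, Pola1, Prim1, Prim2, Pold1, Pcna, Rfc3, Rrm1, Tyms, Tk1 and Slbp. This was flagged because the mouse is outside the comparison of the report. Its largest excess over the wild-type mean was 0.56 (Tyms), then 0.38 (Rfc3), and in limma none of the 42 differences from wild type at the brightest probe set had an unadjusted p under 0.05. Over all 81 probe sets of these genes, 3 dimmer ones were below that limit, all higher in mouse 6: Rrm1 (0.65), Rrm2 (0.52) and Mcm3 (0.44), each with an adjusted p of 0.678 in limma.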

How the results depend on the processing

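None of the 42 genes changed direction under the alternatives run. With all 3 labelled mice, 0 of the 42 genes and 0 of the further replication genes passed. In limma, 3 of the 42 genes together and 3 of the further genes had an unadjusted p under 0.05. Medians were -0.85 for all 42 genes, -0.81 for origin licensing, -1.12 for the helicase and -0.74 for polymerase and primase. They were -0.61 for clamp and loader, -0.56 for strand completion, -1.07 for nucleotide supply and -1.11 for histone supply and chromatin. Leaving out 1 mouse at a time left 6 (without mouse 17) to 26 of the 42 passing, with medians of -1.55 to -1.10. Without mice 6-1, 8-1, 9-1 and 14 the counts were 20, 16, 25 and 26. By role, 1 to 3 origin licensing, 2 to 9 helicase, 0 to 4 polymerase and primase (median -1.34 to -0.99), 0 to 2 clamp and loader, 0 to 2 strand completion and 1 to 5 nucleotide supply genes passed, and 1 to 20 of the further genes, with 8 without mouse 8-1; the lowest counts came without mouse 17, or without either it or mouse 8-1, and strand completion had 1 without mouse 6-1, 8-1 or 14. At an adjusted p under 0.05 alone, 42 passed, with 5 of origin licensing, 6 of clamp and loader, 5 of strand completion and 48 of the further genes. Over all genes, 832 were lower and 418 higher, against 0 and 0 with all 3 labelled mice, 373 and 191 without mouse 8-1, 767 and 185 without mouse 14, 194 and 61 without mouse 17, and 2109 and 1902 at an adjusted p under 0.05 alone. Trended and robust moderation, cyclic loess and median centring (which moved the median of all genes from 0.04 to 0.09) kept the same 28 genes, brighter probe sets kept 27 of the 40 tested, and the mean of probe sets gave 28, of which 27 were shared. Without probe sets marked as shared (_s_at or _x_at), chosen after seeing the data, 28 passed. No paired analysis was possible because the labels give no numbers shared between the groups. Where mouse 14 or 17 was left out, the lone Frzb-/- mouse is assumed to vary like the wild-type mice. Arrays show no depth, and dim probe sets limit what can be seen.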
